A study of Mus musculus and Homo sapiens with 11 samples.

Results

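The transcription factor gene Trp63 and 9 genes of the myoepithelial contractile apparatus (Oxtr, Acta2, Actg2, Tpm2, Cald1, Cnn1, Tagln, Myh11 and Mylk) were followed in a brain metastatic derivative of a mouse mammary tumour line and in the line it came from. The 10 genes were chosen by symbol, and all 10 were present among the 24062 genes of the deposited table. The derivative, MMTV-ErbB2 BrM 2a, and the parental line, MMTV-ErbB2, were each represented by 3 libraries of polyadenylated RNA. Both carry ErbB2, which encodes the growth factor receptor HER2, under the long terminal repeat of mouse mammary tumour virus (MMTV), so this transgene is shared by the groups. The labels name a single derivative and do not say whether it is a clone, give no time or treatment, and list 2 kinds of medium and 2 library kits without assigning them to libraries. Medium or kit and cell line thus cannot be told apart. The growth protocol of these libraries describes cultured cells, while the design text of the series describes brains of mice injected with human lines; the MMTV-ErbB2 libraries were read as cultured cells, and the labels do not state outright that no host tissue was present. The 5 human HCC1954 samples were not analysed here.

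Myoepithelial cells form the outer layer of mammary ducts and alveoli. They carry p63, a p53-related factor needed for basal epithelium, and a smooth muscle type of actin and myosin apparatus. Oxytocin acting on its receptor raises calcium in these cells, which activates myosin light chain kinase (Mylk), and the contraction that follows ejects milk. Many of the contractile genes are targets of serum response factor (SRF), which binds a DNA element called the CArG box.

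Values are read counts scaled per library by the authors, called normalised counts here. Means carry the SD of the group, with n = 3 in each. Between 29877087 and 46683735 reads were assigned to genes in a library. BrM replicates 2 and 3 were close to each other, with 220 genes at least 2-fold apart, while 3614 genes separated BrM replicates 1 and 2 and 976 to 1683 separated the parental libraries. The labels do not state that replicates were grown separately. The p-values thus reflect variation among the libraries at hand, possibly of technical origin. In bulk RNA, fewer cells of a kind and less RNA per cell cannot be told apart.

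The contractile genes did not move together. Trp63 and Acta2 fell to between 2 and 21 reads per BrM library, Tpm2 rose, Cald1 was abundant in both groups, and the remaining members were low or did not pass the test. Of the 10 genes, 7 had a mean of at least 10 over the 6 libraries and were tested. By limma with Benjamini-Hochberg adjustment over all 13821 genes tested, 2 of the 7 fell, 1 rose and 4 did not pass an adjusted p of 0.05. Over all tested genes 15.8% were called lower and 12.2% higher in the derivative, 28.1% in either direction. The counts of each gene list below are to be read beside these shares. The libraries of the groups did not overlap for 4 of the 7, against 48.0% of all tested genes. BrM was the lower group in 3 of these (25.7% of all tested genes) and the higher in 1 (22.3%). The median log2 fold change of the 7 was -0.48, and that of all tested genes -0.05. With so large a share of the table called, the number of members called is no result about them as a group, and the genes are best read one at a time.

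**Figure D1:**
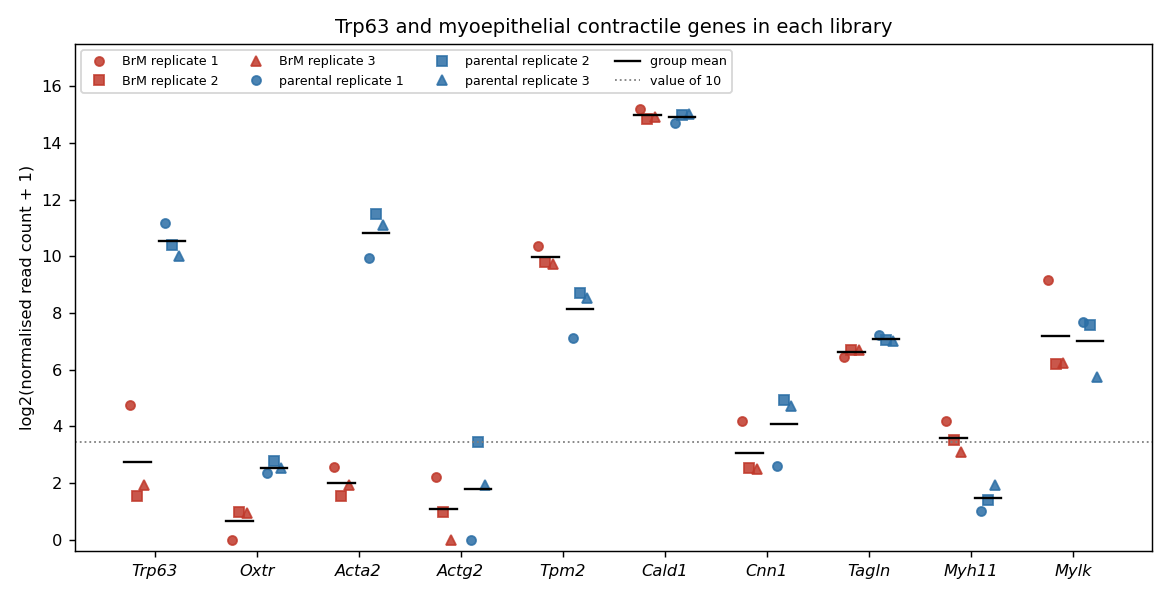
Level of each of the 10 genes in each library, as log2 of the normalised read count plus 1, with BrM on the left and parental on the right of each gene, bars at the mean of the log2 values and a dotted line at a normalised count of 10. Trp63 and Acta2 are at 25.6 or below in every BrM library and at 972 or above in every parental library, while Cald1 lies between 26820.3 and 37559 in all of them.

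SRF and the TEAD factors are known to act on smooth muscle genes through the elements marked here. A link between such elements and the changes was not tested. The promoters of Acta2, which fell most, and of Tpm2, which rose, are shown, a pair picked with their values known. Each is 300 bases long, from 250 before to 50 after the RefSeq start on GRCm38.p6, minus strand, read 5′ to 3′, at chr19:34255324-34255623 for Acta2 and chr4:43523505-43523804 for Tpm2. Capitals mark CArG-like elements, meaning a CArG box with a single C or G inside its run of A and T, and the MCAT element CATTCC on either strand, and no marked elements overlap.
Acta2: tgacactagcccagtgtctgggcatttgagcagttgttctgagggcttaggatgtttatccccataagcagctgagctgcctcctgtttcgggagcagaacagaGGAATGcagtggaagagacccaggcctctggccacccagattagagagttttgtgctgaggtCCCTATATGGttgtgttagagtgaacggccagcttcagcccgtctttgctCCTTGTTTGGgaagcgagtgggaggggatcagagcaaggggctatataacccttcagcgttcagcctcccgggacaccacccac
Tpm2: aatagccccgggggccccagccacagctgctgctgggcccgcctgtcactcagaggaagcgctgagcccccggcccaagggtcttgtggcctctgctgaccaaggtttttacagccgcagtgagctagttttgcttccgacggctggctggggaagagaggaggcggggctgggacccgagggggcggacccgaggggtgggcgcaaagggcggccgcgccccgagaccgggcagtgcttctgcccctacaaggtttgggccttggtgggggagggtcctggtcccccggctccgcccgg
In Acta2 the CArG-like elements CCCTATATGG and CCTTGTTTGG began 84 and 34 bases before the start, and an MCAT element read as GGAATG began 146 bases before it. Distances are counted from the RefSeq start, and the letters tatataa of the Acta2 window lie after that start. Where transcription begins in these cells was not tested. No exact CArG box was found in the Acta2 window and no marked element in that of Tpm2. Of 32851 RefSeq promoter windows of the same length, 8.5% held a CArG-like element, 1.63% an exact CArG box and 14.7% an MCAT element. Promoters of Cald1 (both windows), Cnn1, Mylk and Oxtr were searched as well; none held a CArG box or a CArG-like element, and MCAT elements stood in 1 Cald1 window and in Mylk. Trp63, Myh11, Tagln and Actg2 had no entry. These matches describe letters in the windows and say nothing of binding.

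Trp63, on chromosome 16 (GRCm38, 25683763 to 25892102, plus strand), was nearly lost. It stood at 25.6, 1.91 and 2.79 in BrM replicates 1, 2 and 3, against 2314, 1368 and 1038 in parental replicates 1, 2 and 3. Every parental library was above every BrM library, and within the derivative replicate 1 held most of the reads, 21 against 2 and 3. The group means were 10.1 ± 13.4 and 1573 ± 663, a log2 fold change of -7.81 (SE 0.86, limma adjusted p = 0.00151), or 224-fold lower. The fold depended on BrM replicate 1: it was 447-fold without that library and 148-fold without BrM replicate 2. With a pseudocount of 5 in place of 1 it was 126-fold, and the call held in all 18 alternatives. Gene-level counts do not separate the long and short isoforms of p63. None of the 50-base words of the Trp63 transcripts occurred in a transcript of another gene.

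Its relative Trp53 did not follow, and Trp73 was too low in both groups to tell. Trp53, which encodes the tumour suppressor p53, was at 6131 ± 1379 in BrM and 6067 ± 264 in parental libraries (adjusted p = 0.971), and Trp73 had 1 read in BrM and 0 in parental libraries, which is under the floor of 3 reads over a group. Of the 6 tested genes of the p53 family and of p63 partners, 2 rose, 1 fell and 3 did not pass. Ppp1r13b, a p53-binding protein of the ASPP family, rose 3.87-fold (1204 ± 241 against 306 ± 16.5, adjusted p = 0.00107) and Ppp1r13l, the inhibitory member of that family, rose 1.76-fold (adjusted p = 0.0362). Itch, a ubiquitin ligase known to degrade p63, fell 1.65-fold (2650.4 ± 134 against 4387 ± 609, adjusted p = 0.0127). Ppp1r13l lost its call without BrM replicate 2 or 3 or parental replicate 1 or 3 (adjusted p 0.0686 to 0.115), and Itch without BrM replicate 2 or parental replicate 2 (adjusted p 0.0566 and 0.0557).

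Genes known to be bound or regulated by p63 in basal epithelium went both ways, more of them up than down. Among 27 tested genes, 11 rose, 3 fell and 13 did not pass, with a median log2 fold change of 0.54 against -0.05 for all tested genes. The list does not record whether p63 activates or represses each gene, so these counts do not measure p63 activity. Sfn, which encodes the cell cycle brake 14-3-3 sigma, rose 5.85-fold (1839 ± 389.9 against 332 ± 161, adjusted p = 0.00371), the kinase gene Ripk4 rose 3.51-fold (adjusted p = 0.0044) and Ovol1, an epithelial transcription factor, rose 3.09-fold (adjusted p = 0.00611). Krt17, a basal keratin, fell 60.1-fold (23.3 ± 23.3 against 1125 ± 367, adjusted p = 0.00183), and 101-fold without BrM replicate 1. Lama3 and Lamb3, which encode laminin chains of the basement membrane, moved in opposite directions and are named after their values were seen. Lama3 rose 32.5-fold (10159.8 ± 3598 against 488 ± 536, adjusted p = 0.00741), while Lamb3 fell 2.38-fold (9169 ± 3632 against 21545 ± 7098, adjusted p = 0.0344). Lamb3 lost its call without BrM replicate 2 or 3 or any parental library (adjusted p 0.0533 to 0.109). Parental replicate 3 held Lama3 at 1096; without it the fold of Lama3 was 62.2, and it was 17.6 without parental replicate 1. The counts for the list went from 6 to 12 higher and 1 to 5 lower when 1 library was left out, with 12 higher and 5 lower without BrM replicate 1.

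The label of a myoepithelial programme was checked against basal and myoepithelial identity genes. Among 17 tested genes, 2 rose (Krt5 and Sox10), 10 fell and 5 did not pass, with a median log2 fold change of -1.25. When 1 library was left out, 8 to 10 were called lower and 1 to 2 higher. Krt5, Krt14, Krt17 and Itga6 also stand in the list of genes regulated by p63. Mme, the surface peptidase CD10 of myoepithelial cells, fell 74-fold (148 ± 48.2 against 13169.8 ± 10066, adjusted p = 0.000962), the mesenchymal filament gene Vim fell 16.2-fold (2246 ± 399.6 against 37484 ± 12566, adjusted p = 0.000249), Egfr fell 4.02-fold and Sox9 fell 2.43-fold. Mme was 48.9-fold lower without parental replicate 1 and 112-fold lower without parental replicate 3. Snai2, the basal transcription factor Slug, fell 9.42-fold (14.7 ± 2.83 against 152 ± 57.7, adjusted p = 0.00183). Sox10 rose 15.3-fold, and 9.84-fold without parental replicate 3. The basal keratins Krt5 and Krt14, which pair in normal myoepithelium, were apart: Krt14 was at 4075 ± 1629 in BrM and 9206 ± 1777 in parental libraries (2.39-fold lower, adjusted p = 0.0398), and Krt5 was at 26.3 ± 15.7 in BrM and 3.73 ± 1.7 in parental libraries (5.41-fold higher, adjusted p = 0.02). Krt14 lost its call without BrM replicate 2 or any parental library (adjusted p 0.0598 to 0.12), and Krt5 without BrM replicate 2 or parental replicate 1 or 2 (adjusted p 0.0619 to 0.0748). Sox10, Snai2, Krt5 and Krt14 are named after their values were seen. Krt18, a keratin of luminal cells, stood at 43588 ± 4629.9 in BrM and 19135 ± 993 in parental libraries, while Krt19, another luminal keratin, stood at 14.8 ± 13.1 in BrM and 2131 ± 1477 in parental libraries (135-fold lower, adjusted p = 0.00256). The fold of Krt19 was 214 with BrM replicate 1 left out, 85.5 with BrM replicate 2 left out and 238 with parental replicate 3 left out. Of 13 tested luminal genes, 4 were higher, 4 lower and 5 did not pass. The count lower went from 3 to 7 when 1 library was left out, with 7 without BrM replicate 1. Parental libraries thus held Trp63, Acta2, Mme and Krt14 beside the luminal keratins Krt18 and Krt19, and BrM libraries also held Krt14 and Krt18. Oxtr, Myh11 and Krt5 were under 10 in each parental library, so the full set of myoepithelial markers was present in neither group. Whether the same cells held these RNAs was not tested.

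Oxtr, the oxytocin receptor (chromosome 6, 112473683 to 112489943, minus strand), was barely detected. It had 0, 0.956 and 0.931 in BrM replicates 1, 2 and 3, against 4.07, 5.77 and 4.72 in parental replicates 1, 2 and 3. The groups did not overlap, but the values rest on 2 reads in BrM and 16 in parental libraries. By the ratio of pooled reads it was 7.22-fold lower (exact 95% interval 1.7 to 64.7, for counting error alone). It was under the filter of the test; with no filter, limma gave a log2 fold change of -1.90 (SE 0.42, adjusted p = 0.0203).

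The related vasopressin receptor Avpr1a, which also binds oxytocin and signals through the same G proteins, was the more abundant of these receptors in the parental line per length, at 279.5 ± 142 normalised reads per kb of exon where Oxtr was at 1.01 ± 0.179. It had no read in any BrM library, against 1174, 616 and 449 in parental replicates 1, 2 and 3 (limma adjusted p = 0.000107). Setting the BrM group to a floor of 3 pooled reads, the gene was at least 715-fold lower. In the list of the whole route, with Avpr1a among its members, 8 of the 20 tested genes fell, 2 rose and 10 did not pass, with a median log2 fold change of -0.45, which stayed the same with Avpr1a at its bound. Plcb1, a phospholipase C that makes the calcium-releasing messenger IP3, fell 13.5-fold (111 ± 42.5 against 1453 ± 149.9, adjusted p = 0.000415). Stim1, the calcium sensor of the endoplasmic reticulum, fell 2.43-fold (1353 ± 152 against 3292 ± 320.2, adjusted p = 0.00163). Rgs4, which shuts off the G proteins of this route, fell 171-fold (6.04 ± 6.55 against 882 ± 168, adjusted p = 0.000917). Rgs4 was 287-fold lower without BrM replicate 1 and 106-fold lower without BrM replicate 2. The count of the route went from 6 to 9 lower and from 0 to 2 higher when 1 library was left out. Gna11, a G protein subunit that couples to the receptor, did not pass (5389.7 ± 245 against 5706 ± 382, adjusted p = 0.632; log2 fold change -0.08, SE 0.11). Gnaq, its sister subunit, was 1.39-fold lower (4753 ± 527 against 6563 ± 332, adjusted p = 0.0359), a call lost without BrM replicate 2 or 3 or any parental library (adjusted p 0.0734 to 0.142). Gna11 and Gnaq are named after their values were seen.

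Acta2, smooth muscle actin (chromosome 19, 34241090 to 34255590, minus strand), showed the largest fall of the 7 tested members. It stood at 4.88, 1.91 and 2.79 in BrM replicates 1, 2 and 3, against 972, 2861 and 2205 in parental replicates 1, 2 and 3. All BrM libraries were near 0 with 4, 2 and 3 reads, and parental replicate 1 was the lowest of its group. The means were 3.2 ± 1.53 and 2013 ± 959, 455-fold lower on log2 of the value plus 1 (log2 fold change -8.83, SE 0.50, adjusted p = 0.000156). With a pseudocount of 5 the fold was 227. By the ratio of pooled reads, 9 against 6764, it was 678-fold lower (exact 95% interval 357 to 1484). Both Trp63 and Acta2 fell at least 100-fold, as did 1.13% of all tested genes. Of the 2146 distinct 50-base words in Acta2 transcripts, 7 also occurred in another gene, so reads shared with other actins could touch few of its counts.

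Actg2, the enteric smooth muscle actin, was near 0 in both groups. It had 3.66, 0.956 and 0 in BrM replicates 1, 2 and 3, against 0, 9.88 and 2.83 in parental replicates 1, 2 and 3, and the groups overlapped. It was under the filter (adjusted p = 0.613 with no filter). Among the 6 actins compared per kilobase of exon, Acta2 made up 0.00153% ± 0.000774 of the summed level in BrM and 0.887% ± 0.33 in parental libraries. The cytoplasmic actins Actb and Actg1 made up nearly all the rest, with 52.7% and 47.3% in BrM and 36.3% and 62.7% in parental libraries. Of the Actg1 words, 37.4% occurred in transcripts of other genes, so its share is uncertain.

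Tpm2, beta-tropomyosin, which lies along the actin filament (chromosome 4, 43514711 to 43523765, minus strand), rose. It stood at 1318, 902 and 847 in BrM replicates 1, 2 and 3, against 139, 416 and 372 in parental replicates 1, 2 and 3. The groups did not overlap, and the extremes were BrM replicate 1 and parental replicate 1. The means were 1022 ± 258 and 309 ± 149, or 3.59-fold higher (log2 fold change 1.84, SE 0.45, adjusted p = 0.0247). The call was lost without BrM replicate 2 (adjusted p = 0.066), without BrM replicate 3 (0.0581) and with those libraries averaged as 1 sample (0.0616); over all alternatives the adjusted p went from 0.000709 to 0.066 with the log2 fold change between 1.35 and 2.13. Among tropomyosins per kilobase of exon, Tpm2 still made up a small part, 1.93% ± 0.643 in BrM and 0.445% ± 0.191 in parental libraries. Tpm4, a tropomyosin of non-muscle cells, made up 60% ± 2.65 in BrM and 62.5% ± 0.899 in parental libraries.

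Cald1, caldesmon, which binds actin and tropomyosin and restrains the myosin ATPase (chromosome 6, 34598500 to 34775473, plus strand), was the most abundant member. It stood at 37559, 29858 and 31267 in BrM replicates 1, 2 and 3, against 26820.3, 32585 and 33224 in parental replicates 1, 2 and 3. The groups overlapped. The means were 32895 ± 4100.3 and 30877 ± 3527 (log2 fold change 0.09, SE 0.16, adjusted p = 0.709), and over the alternatives the log2 fold change went from -0.04 to 0.16. Caldesmon has a smooth muscle and a non-muscle isoform, which gene-level counts do not separate.

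Cnn1, calponin 1, an actin-binding regulator of smooth muscle (chromosome 9, 22099216 to 22109630, plus strand), was low. It stood at 17.1, 4.78 and 4.66 in BrM replicates 1, 2 and 3, against 5.09, 29.7 and 25.5 in parental replicates 1, 2 and 3. The groups overlapped through BrM replicate 1 and parental replicate 1, and the test did not pass (log2 fold change -1.02, SE 0.80, adjusted p = 0.387). Its relatives Cnn2 and Cnn3 made up 48.4% and 51.6% of the calponin level per kilobase of exon in BrM and 38.9% and 61.1% in parental libraries, and Cnn1 less than 0.1% in every library.

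Tagln, transgelin or SM22, an actin-binding protein of smooth muscle (chromosome 9, 45929619 to 45936058, minus strand), was slightly lower. It stood at 86.7, 102 and 102 in BrM replicates 1, 2 and 3, against 149.6, 130.1 and 127 in parental replicates 1, 2 and 3. The groups did not overlap, yet the difference did not pass the test (96.8 ± 8.82 against 136 ± 12.1, log2 fold change -0.48, SE 0.24, adjusted p = 0.18; 0.0667 to 0.36 over the alternatives). Exons of Tagln overlap those of Pcsk7 on the other strand. Whether reads were counted by strand is not given in the sources used here, so reads of these genes cannot be told apart. Pcsk7 was at 1603 ± 344 in BrM and 1699 ± 39.2 in parental libraries.

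Myh11, the smooth muscle myosin heavy chain and a late marker of contractile cells (chromosome 16, 14194535 to 14291372, minus strand), was low in both groups and higher in the derivative. It stood at 17.1, 10.5 and 7.45 in BrM replicates 1, 2 and 3, against 1.02, 1.65 and 2.83 in parental replicates 1, 2 and 3. The groups did not overlap, and the direction was opposite to that of Acta2. With 33 and 6 pooled reads it was 6.09-fold higher (exact 95% interval 2.52 to 17.8). It was under the filter; with no filter limma gave a log2 fold change of 2.14 (SE 0.48, adjusted p = 0.0207). Among heavy chains per kilobase of exon it made up 0.032% ± 0.0133 in BrM and 0.00535% ± 0.00227 in parental libraries, with Myh9, a non-muscle heavy chain, at 53.5% ± 10.6 in BrM and 80.2% ± 3.38 in parental libraries.

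Mylk, myosin light chain kinase (chromosome 16, 34745210 to 35002420, plus strand), varied more within the derivative than between groups. It stood at 579.8, 71.7 and 73.6 in BrM replicates 1, 2 and 3, against 206, 192 and 52.9 in parental replicates 1, 2 and 3. BrM replicate 1 was the highest of the 6 libraries, and BrM replicates 2 and 3 lay inside the parental range. The test did not pass (log2 fold change 0.18, SE 0.95, adjusted p = 0.903), and without BrM replicate 1 the log2 fold change was -0.81 (adjusted p = 0.314). BrM replicate 1 was at least 2-fold above both other BrM libraries for Trp63, Cnn1 and Mylk, 3 of the 7 tested members, against 14.7% of all tested genes.

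**Figure D2:**
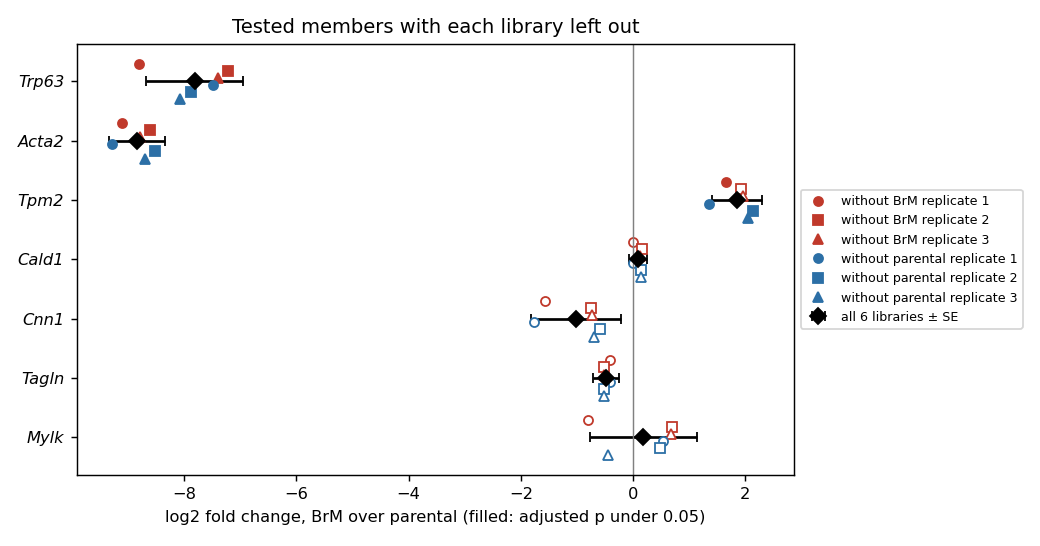
Log2 fold change, BrM over parental, of the 7 tested members with all 6 libraries (diamond, with SE) and with each library left out (red symbols for BrM, blue for parental), filled where the adjusted p was under 0.05. Trp63 and Acta2 stay below -7 and filled, Tpm2 opens without BrM replicate 2 or 3, and Mylk changes sign without BrM replicate 1 or parental replicate 3.

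Per kilobase of exon, the order of the members in the derivative was led by Cald1 (2732 ± 340.5 normalised reads per kb), Tpm2 (351 ± 88.6), Tagln (48.7 ± 4.44) and Mylk (21.5 ± 26). In the parental line it was Cald1 (2564 ± 293), Acta2 (917 ± 437), Trp63 (188 ± 79), Tpm2 (106 ± 51.1) and Tagln (68.3 ± 6.08). In BrM the values of Tagln and Mylk overlapped, and Cnn1, Myh11, Acta2, Trp63, Actg2 and Oxtr followed at 3.23 down to 0.13 per kb each overlapping its neighbour in that order. In parental libraries Trp63 overlapped Tpm2, and Tpm2 overlapped Tagln. Mylk, Cnn1, Actg2, Oxtr and Myh11 followed at 13.3 down to 0.24 per kb, each overlapping the next except Oxtr and Myh11.

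**Figure D3:**
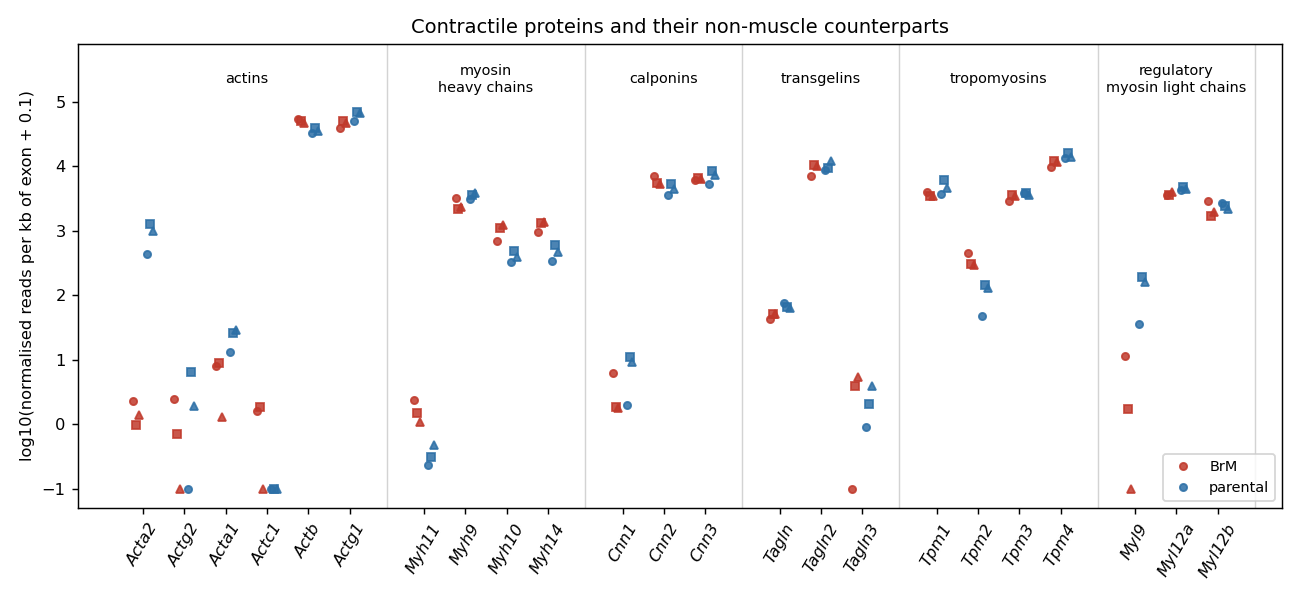
Smooth muscle members of 6 contractile families and their non-muscle counterparts, as log10 of normalised reads per kilobase of exon plus 0.1, with BrM in red on the left and parental in blue on the right of each gene. Circles, squares and triangles are replicates 1, 2 and 3. Acta2 and Myl9 lie far below Actb, Actg1, Myl12a and Myl12b in both groups, and every parental library is above every BrM library for Acta2 and Myl9.

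Other contractile genes also went both ways. Among 19 tested genes, 2 rose (Lmod1 and Actn1), 4 fell (Myl9, Synpo2, Csrp2 and Pdlim3) and 13 did not pass, with a median log2 fold change of -0.08. Over all tested genes 12.2% were called higher and 15.8% lower, so these counts are no result about the list as a group. Myl9, the smooth muscle regulatory light chain that Mylk phosphorylates, fell 35.4-fold (13.4, 1.91 and 0 in BrM against 41.7, 227 and 191 in parental replicates, adjusted p = 0.0165). Its call was lost without BrM replicate 2, parental replicate 2 or parental replicate 3 (adjusted p 0.0556 to 0.0686), and its fold was 72.1 without BrM replicate 1, 19 without BrM replicate 3 and 60.1 without parental replicate 1. Synpo2, an actin-bundling protein of smooth muscle, fell 6.9-fold (3.61 ± 2.22 against 30.6 ± 13.8, adjusted p = 0.012). Lmod1, a leiomodin that nucleates smooth muscle actin filaments, rose 5.8-fold (32.8 ± 19.3 against 4.47 ± 1.87, adjusted p = 0.0149). Actn1, an actin crosslinker, rose 2.61-fold (26294 ± 1001 against 10474 ± 3635, adjusted p = 0.00873). Synpo2 lost its call without parental replicate 2 (adjusted p = 0.0527) and Lmod1 without parental replicate 1 (0.0553). Csrp2 lost its call without BrM replicate 2 or 3 or parental replicate 2 or 3 (adjusted p 0.0676 to 0.116), and Pdlim3 without BrM replicate 2 or 3 or parental replicate 1 or 2 (adjusted p 0.0571 to 0.0891). With all libraries Pdlim3 was 35.7-fold lower; leaving out parental replicate 1 gave 19.4, and leaving out parental replicate 3 gave 92.4. Csrp2 and Pdlim3 are named after their values were seen. Leaving out 1 library gave 0 to 5 lower and 1 to 4 higher, with 5 lower and 4 higher without BrM replicate 1.

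Among 13 tested non-muscle counterparts, limma called 2 higher and 0 lower, as did edgeR, and DESeq2 called 3 higher and 0 lower. Of all tested genes limma called 12.2% higher and 15.8% lower. The non-muscle myosins Myh14 and Myh10 rose 2.62-fold (8879 ± 1602 against 3447 ± 982, adjusted p = 0.0087) and 2.47-fold (10586 ± 2912 against 4221 ± 904, adjusted p = 0.0127). Myh10 was just past the threshold, and no longer called, without BrM replicate 2 (adjusted p = 0.0504) and without parental replicate 1. Without BrM replicate 1, 2 of these genes (Myh9 and Myl12b) were called lower.

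The list of SRF, its coactivators and genes acting with them gave 3 higher, 0 lower and 9 not passing of 12 tested by limma, with a median log2 fold change of 0.29. Srf itself was at 2371 ± 648 in BrM and 3866 ± 869 in parental libraries (log2 fold change -0.72, SE 0.27, adjusted p = 0.093). Its coactivators Mkl1 (3944 ± 389 against 3107 ± 261, adjusted p = 0.1) and Mkl2 (1809 ± 243 against 1770.5 ± 49, adjusted p = 0.922) did not pass, and Myocd, the smooth muscle coactivator myocardin, had 0 reads in BrM and 6 in parental libraries. Srf, Mkl1, Mkl2 and Myocd are named after their values were seen. Fhl1, a LIM-domain protein, rose 17.6-fold (359.9 ± 106 against 20.9 ± 10.2, adjusted p = 0.00207), the GTPase gene Rhob rose 2.3-fold (adjusted p = 0.00793) and the kinase gene Rock2 rose 1.68-fold (adjusted p = 0.0189). Rock2 lost its call without BrM replicate 2 or 3 or parental replicate 1 or 2 (adjusted p 0.0548 to 0.0748). Leaving out 1 library gave 2 to 5 higher for this list, with 5 without BrM replicate 1.

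**Figure D4:**
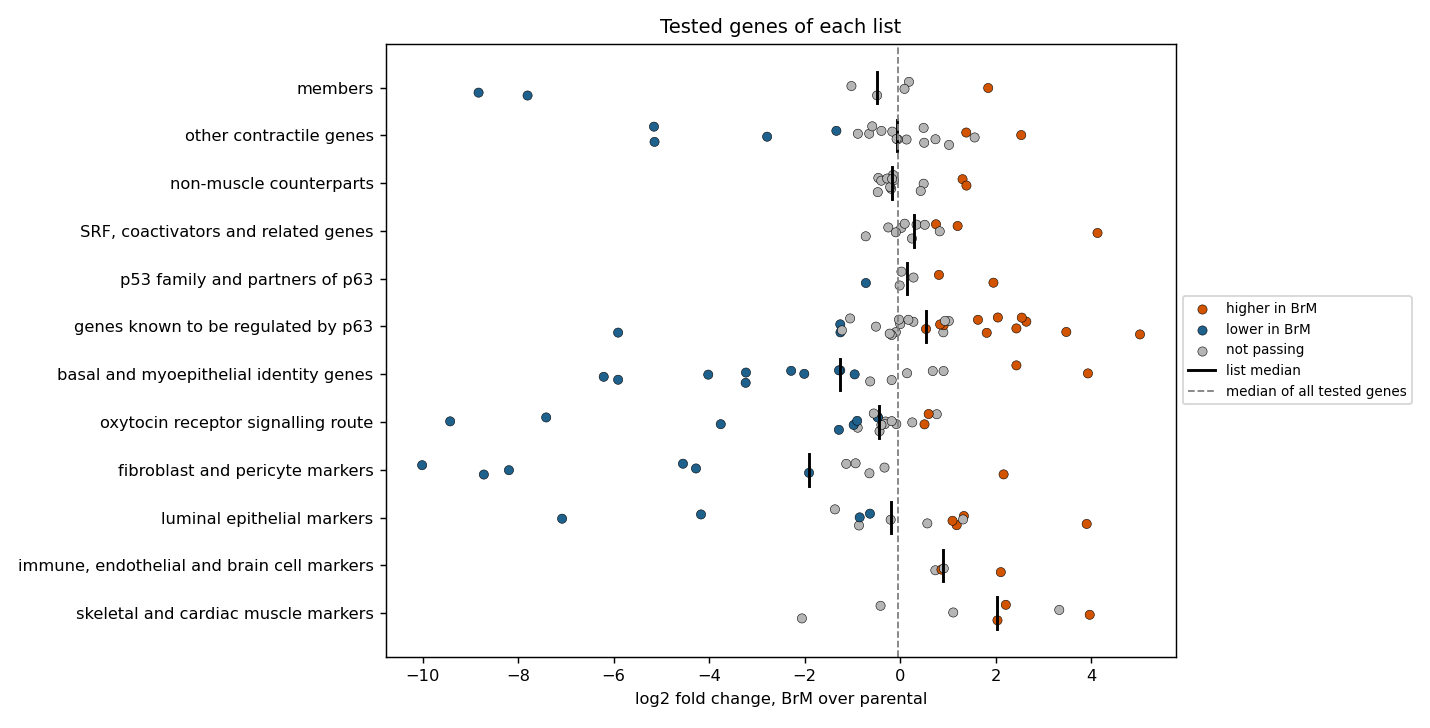
Log2 fold change, BrM over parental, of every tested gene of the members and of 11 gene lists, coloured by call, with list medians as black bars and the median of all tested genes, -0.05, as a dashed line. The basal and the fibroblast and pericyte lists have medians of -1.25 and -1.91, while the contractile lists centre near 0 with a few far outliers.

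Acta2, Myl9 and Tagln are also made by fibroblasts and pericytes. Among 11 tested markers of those cells, 1 (Notch3) rose, 6 fell and 4 did not pass. Their median log2 fold change was -1.91, also with genes without a read at their bound. Notch3 lost its call without parental replicate 1 or 3 (adjusted p 0.0891 and 0.0764). When 1 library was left out, 4 to 6 of these markers were called lower and 0 to 1 higher. Pdgfrb, a pericyte receptor, stood at 0, 0.956 and 3.73 in BrM replicates 1, 2 and 3, against 2765, 3683 and 1002 in parental replicates 1, 2 and 3 (adjusted p = 0.000329). Dcn, the proteoglycan decorin, had no read in BrM and averaged 488 ± 327 in parental libraries, at least 464-fold lower by the same floor. The summed level of the 16 listed genes was 1353 to 4730.1 in BrM and 5305 to 16559 in parental libraries. Of the defining markers, Lum was at 0 in every library and Fap and Thy1 did not exceed 3.83 in any. Of 12 immune, endothelial and brain cell markers in the table, 4 were tested, and Gfap, an astrocyte filament gene (106 ± 29.9 against 23.4 ± 5.08, adjusted p = 0.00637), and Mbp, a myelin gene (2085 ± 27.3 against 1154 ± 177, adjusted p = 0.00895), rose. The sum of the listed genes was 2428 to 5030.4 in BrM and 1542 to 1615 in parental libraries, most of it Mbp and the macrophage gene Cd68, which did not pass (adjusted p = 0.637) and stood at 2670 in BrM replicate 1 and 209 and 211 in BrM replicates 2 and 3. Of 15 skeletal and cardiac muscle markers, 7 were tested, 3 higher, and most of their sum was Tnnt2, a troponin gene (12377 ± 557 against 3016 ± 228, adjusted p = 0.000162), while Myog and Myh7 were at 0 in every library. The count higher went from 2 to 5 when 1 library was left out, with 5 higher and 1 lower without BrM replicate 1. The part of other cell types in the fall of Acta2 was not tested.

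The 5 genes whose log2 values over the 6 libraries were most like those of Trp63, among 11366 with a mean of at least 100, were Mboat7, Cds1, Sppl2a, Alpk1 and Rgma, with Pearson correlations of 0.998 to 0.999. The points share 2 groups of libraries, so these values mostly restate the gap between groups and the position of BrM replicate 1 above BrM replicates 2 and 3. Their changes were far smaller than that of Trp63, with log2 fold changes from -0.71 for Cds1 to -2.70 for Rgma.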

How the data were processed

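Polyadenylated RNA of 3 MMTV-ErbB2 BrM 2a and 3 parental libraries was analysed. The deposited signal values are read counts per gene divided by a factor per library, made by the authors, and per the submitters' processing notes the read aligner STAR and the counter HTSeq were used, with GRCm38 and GRCh38 as builds and versions not given in the sources used here. In each library 100% of values above 0 were whole multiples of 1 read within 0.01 read, so reads were recovered. Replicate numbers are those of the table's columns, since the BrM columns could not be tied to numbered titles.

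Genes with a mean of at least 10 were tested, 13821 in all, with limma 3.58.1 (R 4.3.3) on log2 of the deposited value plus 1, with an intensity trend and Benjamini-Hochberg adjustment, threshold 0.05. The added 1 shrinks folds of genes near 0, but a mean of log2 values need not match the ratio of pooled reads. The fold was 455 against 678 by pooled reads for Acta2, and 224 against 175 for Trp63. Alternatives were edgeR 4.0.16 and DESeq2 1.42.0 on recovered reads, other pseudocounts, filters, scalings and weights, and leaving out each library. edgeR called 3753 genes and DESeq2 5075, against 3881 by limma. The methods were tested on simulated data. Same-numbered libraries correlated at 0.304, -0.088 and 0.326 in their deviations from group means, and libraries of unlike number at -0.341 to 0.311. Deviations within a group depend on each other, so these values cannot decide on pairing. Numbers were not taken as pairs.

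The members, the 11 lists and the tests were chosen with earlier results of these data known. Named genes were the members, up to 4 called genes with the smallest p-values per list or the 2 of highest mean, and the 5 genes most like Trp63. Some of these are given by their counts only. Some genes are not reported here. Positions and exon lengths came from GENCODE M21 (GRCm38), promoters from RefSeq (GRCm38.p6; 6 of the 10 members matched). Shared 50-base words were counted on the sense strand of GENCODE transcripts. Counting intervals are exact conditional binomial intervals. Intervals and floors cover counting error only. Work was done in Python 3.11.15 with pandas 2.3.3, SciPy 1.17.1 and matplotlib 3.10.9.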

Additional observations from a re-analysis of the deposited data

How the results depend on the processing

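Trp63 and Acta2 were called lower and kept that call in all 18 alternatives. Their log2 fold changes went from -8.81 to -6.98 and from -9.36 to -7.82. The count of members called lower was 2 in each alternative other than no filter, with 3 (Oxtr added), and array weights, with 4 (Mylk and Cnn1 added, Mylk at a log2 fold change of -1.04 against 0.18). The count called higher was 2 with no filter (Myh11 added) and 0 with BrM replicates 2 and 3 averaged, an alternative chosen after seeing the data; it was 0 to 1 with 1 library left out. Over all genes, 3881 were called, with 2191 to 6519 when 1 library was left out, 8485 with array weights and 2279 with BrM replicates 2 and 3 averaged. A replicate block by column number, added after seeing the data, called 4040 genes, and 2 members lower and 1 higher. Under this block Srf passed as lower (adjusted p = 0.0194), as it did with array weights. Planned terms for the numbers in sample titles were not run, because the BrM columns could not be tied to those titles. The cause of these shifts was not tested. Other scalings moved the median of all genes by at most 0.02. Values under 10 rest on a few reads each, so small differences at that level were not detectable at this depth.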
